A study of Mus musculus with 18 samples.

Results

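Each library of splenic CD8 T cells in the series carries a number in the name of its deposited file, and the 6 libraries numbered 3 or 4 were set against the 12 numbered 5, 8, 9 or 10, out of 18 libraries in all. The numbers 3, 4, 5, 8, 9 and 10 correspond to replicates 1 to 6 of each diet, so every diet gives 2 libraries to the first set and 4 to the second. The cells were sorted by flow cytometry from the spleens of wild-type (WT) mice and used freshly isolated. ND mice had normal diet for 12 weeks, HFD mice had high fat diet for 12 weeks, and SW (switched) mice spent the first 6 weeks on high fat diet and the last 6 on normal diet. Neither strain, sex, age, sorting day nor sequencing run is given in the labels used here, and the labels do not say what the numbers mark or whether each library came from its own mouse. Libraries are named below by diet and replicate, so that HFD 1 is the high fat library numbered 3.

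A CD8 T cell recognises peptides on MHC class I and kills the cells that present them, and most CD8 T cells of an unchallenged spleen are resting naive or memory cells. Resting T cells hold many short, abundant messages for ribosomal proteins and for the respiratory chain. Immediate early genes such as Fos are switched on within minutes of stimulation, and are also known to respond to tissue dissociation and sorting. The messages were selected by their poly-A tail, fragmented and copied from random primers, so a long message gives more reads than a short one.

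The sets were chosen by the measured expression values themselves, in which this split stood out, so the difference between them is given as a description with no test. Over the 9829 genes with a mean of at least 5 CPM (counts scaled to a common library total, normalised by edgeR's TMM factors), the first principal component held 19.85% of the variance. The libraries numbered 3 and 4 scored 7.38 to 14.6 on it and the others -11.3 to 3.14. Over all 13690 genes that passed the filter on low counts, the first component (13.43%) instead set apart HFD 4, at 55.0 against at most 6.31 in the other libraries, and the second (12.04%) parted the sets, at 5.58 to 31.1 against -19.1 to 4.59. HFD 4 also had the fewest genes with a count, 17570. By variation over the genes of 5 CPM or more, the set took 17.1% with 1 degree of freedom, diet 18.5% with 2, and the number within a set 19.3% with 4. Set by diet took 8.96% with 2, and the rest 36.1% with 8. A share grows with its degrees of freedom, so the 19.3% does not set the number apart from the rest. Over all 13690 genes the shares in the same order were 10.4%, 16.01%, 21.8%, 10.05% and 41.7%. The first component is therefore the set only when low genes are left out.

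**Figure D1:**
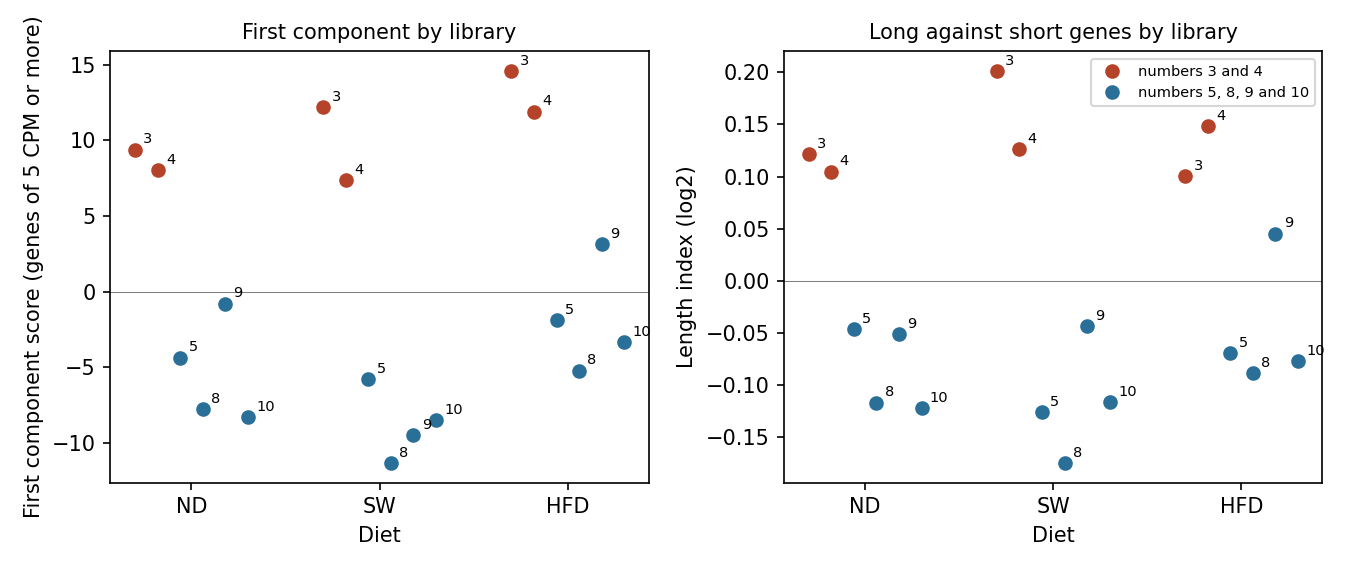
Left, the first component score over genes of at least 5 CPM (y axis) for each library by diet (x axis); right, the length index, the median log2 deviation of genes of 8000 bases or more minus that of genes under 2000 bases. Each point is 1 library with its number beside it; on both axes the 6 red libraries lie above the 12 blue ones, and HFD 5 (number 9) comes closest.

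The total counts of the sets overlapped. The libraries numbered 3 and 4 held 14214100 ± 1136120 counts (SD, n = 6) and the others 14026900 ± 1607960 (n = 12). The mean difference within diets was 187133 counts, with a two-sided exact permutation p of 0.801 over 3375 relabellings within diets, where the smallest possible p is 0.000296. Total counts of all 18 libraries ran from 11947339 to 16398340. Cd8a, a chain of the CD8 co-receptor, was abundant in every library, at 1369 to 1495 CPM in the first set and 1469 to 1635 CPM in the second.

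Differences between the sets were small and spread over many genes. A gene was counted as apart when its 6 and its 12 CPM values did not overlap. Of 13690 genes, 131 were apart and higher in libraries numbered 3 and 4 (0.957%) and 70 were apart and lower (0.511%), 1.47% in all. The split chose these values, so nothing is read from those shares. The median size among the 201 genes was 0.26 on the log2 scale, 6 of the higher and 4 of the lower genes reached 1.5-fold, and 2 genes of the 201 reached 2-fold, Cd300c2 (1.15 ± 0.27) and the gene model Gm47558 (-1.45 ± 0.34). Both averaged under 1 CPM and are named after their values were seen. Over all genes the central 90% of differences lay between -0.38 and 0.34.

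Uprt, which encodes a homologue of uracil phosphoribosyltransferase (chrX:104482818-104507490, GRCm38, plus strand), had the largest difference among the higher genes of 5 CPM or more. It stood at 5.89 to 8.96 CPM (median 7.60) in libraries numbered 3 and 4 and at 2.87 to 5.73 CPM (median 3.94) in the others, a fitted difference of 0.90 ± 0.14 (log2, SE). The ranges nearly met, and ND 1 was the lowest of the 6.

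Pdpr, which encodes the regulatory subunit of pyruvate dehydrogenase phosphatase (chr8:111094630-111137074, plus strand), stood at 27.7 to 35.4 CPM (median 32.3) against 11.9 to 22.1 CPM (median 18.8). Its difference was 0.88 ± 0.10, with 0.80 within ND, 1.12 within SW and 0.72 within HFD. All 6 libraries lay above all 12, with HFD 1 highest and SW 4 lowest of the 18. Lcor, a corepressor bound by nuclear receptors, ran from 25.9 to 29.7 CPM against 13.8 to 21.5 CPM, a difference of 0.63 ± 0.07.

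Other genes higher in the first set had a variety of roles. Snx29, a sorting nexin (0.76 ± 0.14), and Magi3, a scaffold at cell junctions (0.59 ± 0.10), were low, at no more than 9.36 and 12.3 CPM. Rnf125, an E3 ubiquitin ligase, differed by 0.51 ± 0.06. Kcna3, the voltage-gated potassium channel of T cells, differed by 0.47 ± 0.09. Cdk12, a kinase that phosphorylates RNA polymerase II, had 87.2 to 102.0 CPM against 59.5 to 82.8 CPM (0.46 ± 0.05). Nr2c2 (0.50 ± 0.08) and Lig3 (0.45 ± 0.08) share 30.7% and 25.1% of their exonic bases with a gene on the opposite strand, and the strand setting of the counts is not stated, so their reads may belong in part to the neighbour. Eif2s3x, the X-linked gene of the gamma subunit of translation factor eIF2, was 129.4 to 144.2 CPM against 86.9 to 124.1 CPM (0.39 ± 0.05).

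The 70 lower genes included genes of the respiratory chain and of ribosomes. Pmel, known for the fibrils of pigment granules (chr10:128704195-128720238, plus strand), was 15.01 to 23.03 CPM in libraries numbered 3 and 4 against 23.5 to 36.5 CPM, a difference of -0.64 ± 0.08. Ndufv2 and Ndufb3, subunits of respiratory complex I, differed by -0.30 ± 0.05 and -0.29 ± 0.05. Mrpl57 and Mrpl58 belong to the mitochondrial ribosome and differed by -0.29 ± 0.06 and -0.28 ± 0.05. Dnajc19, a cochaperone of mitochondrial protein import, differed by -0.32 ± 0.08, and Bax, which permeabilises the mitochondrial outer membrane in apoptosis, by -0.28 ± 0.04. Taf10, a subunit of TFIID, differed by -0.28 ± 0.04, but 45.9% of its exonic bases are shared with Ilk on the opposite strand.

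Gene length went with the difference. Over 13690 genes, Spearman's rho between the difference and the summed exon length was 0.352, and 0.243 to 0.329 within single diets; genes share libraries and are not independent, so no p is given. The median difference was higher in each longer of 7 length classes, from -0.13 for 1322 genes under 1000 bases to 0.14 for 643 genes of 12000 bases or more. The same order held within ND, SW and HFD. Of the 131 higher genes, 119 were 4000 bases or longer (90.8%), against 48.9% of all genes tested. All 131 were protein coding, as were 59 of the 70 lower genes and 11196 of all 13690 genes. The median length was 8520 bases for the higher genes, 2689.5 for the lower genes and 3905 for all. GC content followed the difference less closely (rho -0.097), and rho with length given GC was 0.341.

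**Figure D2:**
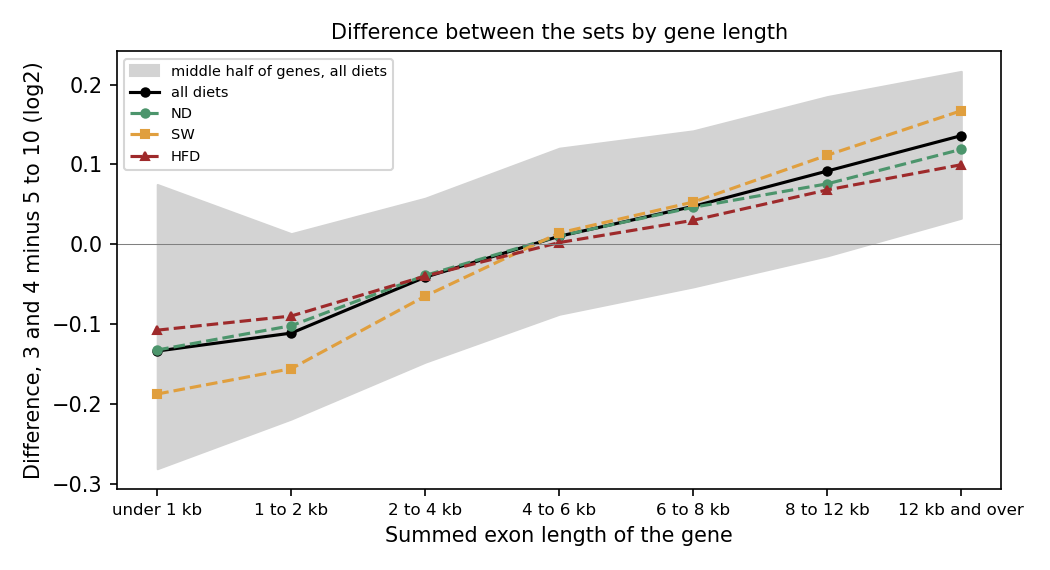
Median fitted difference between libraries numbered 3 and 4 and the others (y axis, log2) for 7 classes of summed exon length (x axis), for all diets together and within each diet. The grey band spans the 25th to 75th percentile of genes; the medians climb from -0.13 to 0.14 over the classes.

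Each library could be placed on this scale by the length index, the median log2 deviation of genes of 8000 bases or more minus that of genes under 2000 bases. The libraries numbered 3 and 4 ran from 0.101 to 0.201 and the others from -0.175 to 0.045. The 12 libraries reached that far because HFD 5 stood at 0.045, while the next highest was SW 5 at -0.043. The index was computed from the values the split rests on.

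With each library's own trend on length taken out as an offset, a setting added once these values were known, 115 genes were apart (0.84%), 71 higher and 44 lower. Of these, 51 higher and 25 lower genes had been apart before. Apart in both fits were Uprt (0.97), Pdpr (0.87), Lcor (0.52), Rnf125 (0.61) and Pmel (-0.57). Bax and Ndufv2 overlapped under the offset, at -0.17 and -0.22.

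Short, abundant messages of translation and respiration were lower as groups. Of 79 cytosolic ribosomal protein genes, 76 had a negative difference and 4 were apart (median -0.19, against -0.01 over all genes). Their share of the counts was 12.4% ± 0.45 (SD, n = 6) in libraries numbered 3 and 4 and 13.8% ± 0.62 (n = 12) in the others. Rpl36, a protein of the large ribosomal subunit, had 696 to 769 CPM against 780.2 to 948 CPM (-0.25 ± 0.04). Nuclear genes of oxidative phosphorylation had a median of -0.17, with 5 of 62 apart and lower. The share of all genes apart and lower was 0.511%, and the values that chose the sets enter both counts, so nothing is read from them. The 14 genes encoded in mitochondrial DNA were all negative (median -0.25) and none was apart. With the length offset the medians became -0.12, -0.08 and -0.13, so each was closer to 0 but still negative. Lists of longer genes could also be lower. For 11 nuclear retained RNA genes (median length 9734 bases) the median was -0.10, with 2 positive. For 30 splicing factor genes (7140.5 bases) it was -0.06, with 6 positive. With the offset these medians were -0.19 and -0.10, and no gene of either list was apart.

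Lists of T cell state and of stress held few genes apart, where 1.47% of all genes were apart. The values that chose the sets enter both counts, so nothing is read from them. Of 15 CD8 identity genes, 2 were apart and lower, against 0.511% of all genes. They were the receptor constant genes Trbc1 (-0.23) and Trbc2 (-0.21), and the list median was -0.09. Only 1 of the 15 had a positive difference, and the list medians were -0.08 (ND), -0.07 (SW) and -0.09 (HFD). With the length offset the median of this list was -0.04. Medians were 0.01 for 20 naive and central T cell genes and -0.04 for 42 effector and memory genes, of which 1 was apart (S100a10, a calcium-binding protein of the annexin complex, -0.19). None of 23 activation, 15 inhibitory receptor, 30 proliferation or 38 type I interferon genes was apart. With the length offset Trbc1 (-0.11), Trbc2 (-0.10) and S100a10 (-0.08) were no longer apart. Foxo1, a transcription factor that keeps T cells naive, stood at 222 to 256 CPM against 186 to 223 CPM (0.23 ± 0.04), so its ranges just overlapped. Cholesterol synthesis genes had a median of 0.22 with 0 of 23 apart, and their medians within diets were 0.08 (ND), 0.41 (SW) and 0.03 (HFD).

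The 5 lists of handling and cell stress had 1 gene apart, Bax in the p53 and apoptosis list, against the same 1.47% of all genes. Medians were -0.14 for 28 immediate early genes, 0.11 for 18 heat shock genes, -0.02 for 20 unfolded protein response genes, 0.07 for 27 hypoxia and glycolysis genes and 0.04 for 21 p53 and apoptosis genes. The first 2 were largest in SW. Within ND, SW and HFD the immediate early medians were -0.01, -0.25 and -0.08, and the heat shock medians 0.004, 0.26 and -0.01. Fos ran from 86.0 to 224.0 CPM in libraries numbered 3 and 4 and from 124 to 447 CPM in the others. Hspa1b, an inducible HSP70 chaperone, was 254 CPM in HFD 1 and at most 16.8 CPM in the other 5 libraries of its set, so its fitted difference of 3.26 ± 1.04 rests on HFD 1 and was 1.56 without it. HFD 1 was also the lowest library for the nuclear RNA Neat1, at 133 CPM against 270 to 604 CPM elsewhere. Without HFD 1 and HFD 4 together, also added later, 220 genes were apart and higher and 131 apart and lower. Fewer libraries then have to be parted, and why the counts rose was not tested.

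**Figure D3:**
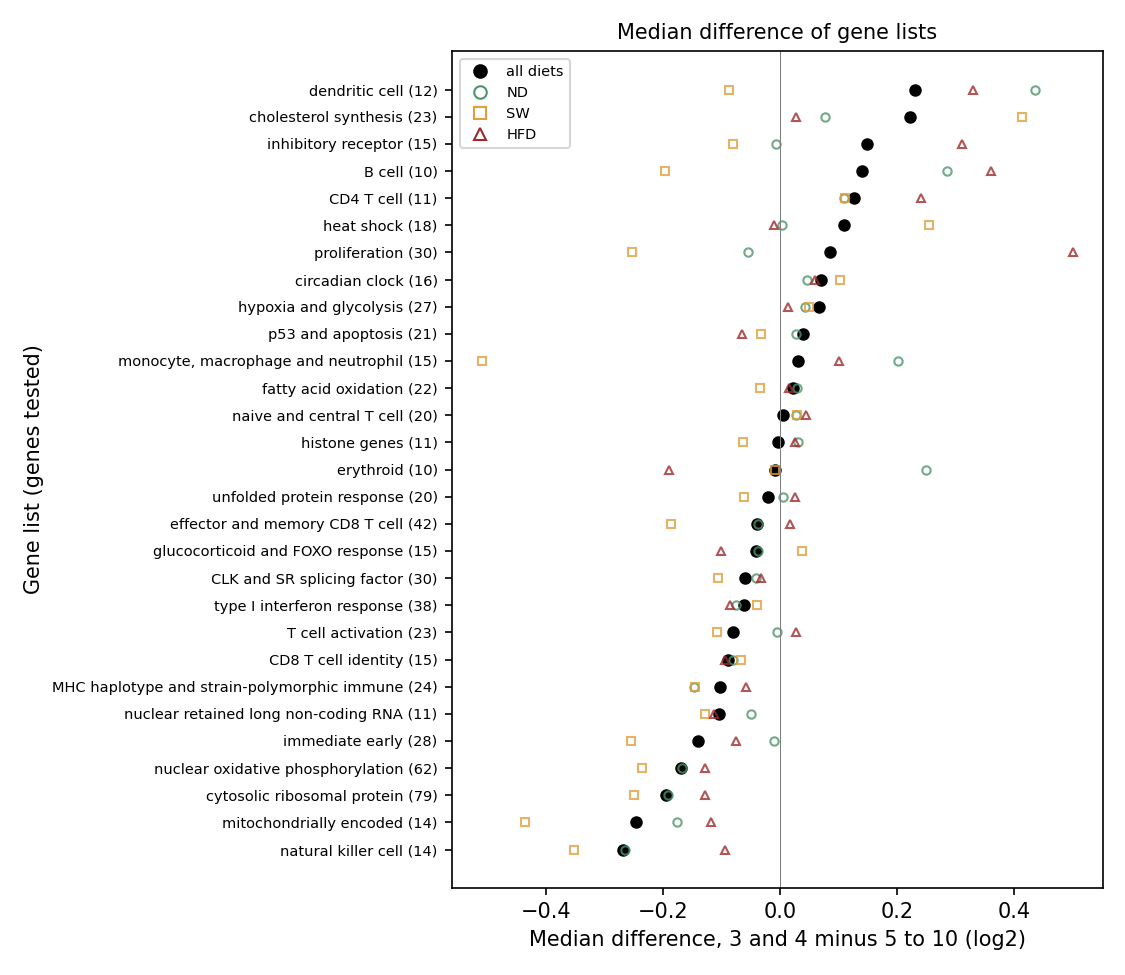
Median difference between the sets (x axis, log2) for each gene list with 10 or more tested genes (y axis, number tested in brackets). Black points are all diets together and open markers single diets. Ribosomal, respiratory chain, mitochondrially encoded and natural killer cell lists lie below 0 in every diet. So do the CD8 identity, immediate early, type I interferon, nuclear retained RNA, splicing factor, and MHC and strain-polymorphic lists. The proliferation, dendritic cell and B cell lists are among those that change side between diets.

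The genes listed as differing between mouse strains or sexes were 5 sex-linked, 7 C57BL/6 substrain and 24 MHC and strain-polymorphic genes. Of these 1 was apart, Eif2s3x, where 1.47% of all genes were apart. That count does not set these lists off from other genes. Xist, the RNA of the inactive X chromosome, had 443 to 709 CPM in all 18 libraries, and the Y-linked genes Ddx3y, Kdm5d and Eif2s3y had no count in any. Nnt, which carries a known deletion in C57BL/6J mice, had at most 1.13 CPM in all libraries. The class I genes H2-K1 and H2-D1 differed by -0.00 ± 0.04 and -0.06 ± 0.04. Other members of the list of MHC and strain-polymorphic genes differed more, with Klra7 at -0.61 ± 0.18, Ly6c2, a surface antigen of memory T cells, at -0.31 ± 0.07, and the class I genes H2-Q4 and H2-T10 at -0.20 ± 0.04 and -0.17 ± 0.04. The ranges of all 4 overlapped between the sets, and the list median was -0.10 over 24 genes. Beside Eif2s3x, described above, the X-linked genes Ddx3x, Kdm5c and Kdm6a differed by 0.17 to 0.20 with overlapping ranges. Entpd4b differed by 2.15 ± 0.41, but it is near the limit of detection, with 0.54 to 3.33 CPM against 0 to 1.34 CPM, and reads may be split with its near-identical copy Entpd4. Apart genes lay on 20 chromosomes, from 0.93% of the genes tested on chromosome 10 to 3.595% on chromosome 18, and no window of 5 Mb held more than 4, of 102 genes tested there.

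Genes of other spleen cells were present at levels that differed from gene to gene. Cd74, the invariant chain of MHC class II in antigen-presenting cells, had 362 to 859 CPM in libraries numbered 3 and 4 (median 436) and 207 to 514 CPM in the others (median 425), a difference of 0.40 ± 0.19. H2-Ab1, a class II chain, differed by 0.40 ± 0.18, and Mpeg1, a pore-forming protein of phagocytes, by 0.59 ± 0.19, at 88.9 to 235 CPM against 56.2 to 122 CPM. HFD 1 was the highest of the 18 libraries for Cd74, and all 3 genes overlapped between the sets. Of the myeloid list, Ctss, a cathepsin of antigen-presenting cells, differed by -0.04 ± 0.05, while Cd14 of monocytes had at most 0.54 CPM. Of the platelet list, Itgb3, an integrin chain, had 29.5 to 45.2 CPM against 27.5 to 36.5 CPM (0.31 ± 0.07), while Pf4 had at most 0.15 CPM. Itgb3 had the highest difference of the 3 platelet genes tested, and the lowest was -0.59. The medians of these 3 genes were 0.18 (ND), 0.46 (SW) and -0.06 (HFD). Dendritic cell genes, among them those of the cross-presenting type that carries CD8 alpha in mouse spleen, were higher in some libraries. Xcr1, its chemokine receptor, had 11.7 to 24.4 CPM in libraries numbered 3 and 4 and 6.87 to 15.2 CPM in the others, with ND 1 and HFD 1 highest. Over all genes 1.47% were apart, so a count of 0 apart does not set the lists of other cells off. The dendritic cell list had a median of 0.23 with 0 of 12 apart, and its medians were 0.44 (ND), -0.09 (SW) and 0.33 (HFD). The list holds Cd8a, which the T cells express themselves. Without Cd8a, the other 11 genes had a median of 0.25 and summed to 379 to 479 CPM in the first set and 331 to 403 CPM in the second, with 0 apart. The B cell list, which includes MHC class II genes, summed to 1363 to 2619 CPM against 996 to 1793 CPM, with 0 of 10 apart. Of its 10 genes 5 had a positive difference, the lowest was at -0.53, and its medians were 0.29 (ND), -0.20 (SW) and 0.36 (HFD). The myeloid list summed to 265 to 478 CPM against 230 to 351 CPM, with 0 of 15 apart and 8 of 15 positive. Its medians were 0.20 (ND), -0.51 (SW) and 0.10 (HFD). The CD4 T cell list summed to 192 to 234 CPM against 163 to 205 CPM, with 0 of 11 apart and 9 of 11 positive. Its lowest difference was -0.17, and its medians were 0.11 (ND), 0.11 (SW) and 0.24 (HFD). The neutrophil genes S100a8 (-1.49 ± 0.31) and S100a9 (-1.08 ± 0.23) had at most 5.14 CPM in any library. The natural killer cell list had a median of -0.27 (-0.19 with the length offset), with 3 of 14 genes positive and 0 apart. Its sums were 400 to 532 CPM in the first set and 390 to 522 CPM in the second. In bulk libraries, more cells of a type and more RNA per cell cannot be told apart, and the part of these cells in the difference was not tested.

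The diets were compared with tests, since an interaction between set and diet lies outside the contrast that defined the split. By the edgeR quasi-likelihood F test with Benjamini-Hochberg adjustment over 13690 genes, 0 genes (0%) had a different set difference among the diets, and 527 had an unadjusted p under 0.05 (3.85%). DESeq2 called 1 gene and limma-voom with sample weights 0. The smallest adjusted p, 0.261, belonged to Mki67, a marker of dividing cells. Mki67 differed by -0.19 ± 0.16 within ND, -0.41 ± 0.16 within SW and 0.83 ± 0.15 within HFD. It had 58.4 and 38.4 CPM in HFD 1 and HFD 2 against 24.2 to 32.5 CPM in the other HFD libraries. The 30 proliferation genes had medians of -0.05, -0.25 and 0.50 in ND, SW and HFD.

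Pairs of diets gave the same outcome. The tests of HFD against ND, SW against ND and SW against HFD called 0 genes each, with smallest adjusted p of 0.797, 0.998 and 0.170 by the same test. Unadjusted p under 0.05 held for 498, 425 and 796 genes. A missing call does not show that the diets are alike. In description, 51.2% of genes had the same sign in all 3 diets, and 58.0% of the genes of 5 CPM or more. Spearman's rho across those 9829 genes was 0.631 between ND and SW, 0.504 between ND and HFD and 0.523 between SW and HFD. The diets share no library, but the split was chosen on all 18 libraries together. Part of this agreement was therefore built in by that choice, and it is not independent support.

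The numbers within each set were also tested, with diet as a covariate. Among 5, 8, 9 and 10, 3 of 13706 genes were called (0.0219%), and 805 had an unadjusted p under 0.05 (5.87%). The genes were Klf4, a zinc finger factor of quiescence, Klra7, a Ly49 receptor, and AC122119.2, a gene model at 1.85 CPM that lies outside the rule for named genes and is given because it is 1 of the 3. Each had an adjusted p of 0.0302 by edgeR. Klf4 in the libraries numbered 5, 8, 9 and 10 stood at 7.13, 4.64, 1.79 and 2.81 CPM in ND, 6.65, 12.4, 3.51 and 4.06 CPM in SW and 7.32, 15.7, 5.28 and 4.81 CPM in HFD. Number 9 or 10 had the lowest value in every diet. Relative to number 5, Klf4 differed by 0.50 ± 0.25 at 8, -1.10 ± 0.27 at 9 and -0.91 ± 0.26 at 10.

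Between 3 and 4, 2 of 13864 genes were called (0.0144%), Fosb and Fos, both of which encode partners in the AP-1 transcription factor, and 673 genes had an unadjusted p under 0.05 (4.85%). Fos had 140.8 and 224.0 CPM in ND 1 and ND 2, 86.0 and 119.9 CPM in SW 1 and SW 2, and 142.1 and 194.4 CPM in HFD 1 and HFD 2. Fosb had 27.6 and 52.96, 11.2 and 19.0, and 18.4 and 37.1 CPM in the same pairs. Both were higher at number 4 in 3 of 3 diets, by 0.53 ± 0.07 for Fos and 0.91 ± 0.11 for Fosb, with an adjusted p of 0.00863 for each by the edgeR test. The upstream regions of this pair are shown because the genes moved together. They are the 250 bases before the start in RefSeq (GRCm38.p6), Fos on chr12:85473640-85473889 (plus strand) and Fosb on chr7:19310046-19310295 (minus strand), with capitals for the cyclic AMP response element core TGACGT on either strand.

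Fos: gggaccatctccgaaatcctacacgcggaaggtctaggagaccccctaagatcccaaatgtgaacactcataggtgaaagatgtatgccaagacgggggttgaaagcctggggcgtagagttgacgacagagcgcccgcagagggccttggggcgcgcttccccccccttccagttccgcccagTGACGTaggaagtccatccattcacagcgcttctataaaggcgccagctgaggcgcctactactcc
Fosb: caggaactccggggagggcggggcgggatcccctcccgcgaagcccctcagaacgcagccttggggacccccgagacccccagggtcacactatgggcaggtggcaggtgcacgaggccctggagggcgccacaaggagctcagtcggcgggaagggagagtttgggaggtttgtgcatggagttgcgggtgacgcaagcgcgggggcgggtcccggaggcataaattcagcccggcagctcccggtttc

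The core occurred in Fos and not in Fosb, and in 6.47% of 32841 upstream regions of the same length. The match is a description of these letters only.

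The calls of number depended on the fit. In simulated counts with no change, the test among 5, 8, 9 and 10 still called a few genes when each gene had its own spread. It called none when the spread was common to all genes. The test of 3 against 4 was not simulated without change. Calls this few are therefore not firm. In 1 fit of all 18 libraries with number nested in the set, 0 genes were called in either test by edgeR (816 and 642 with an unadjusted p under 0.05), and the adjusted p was 0.985 for Fos and Fosb and 0.805 for Klf4. Without ND 1 the adjusted p of Fos was 0.343, and without ND 2 it was 0.280, over a range of 3.44e-12 to 0.985 across its alternatives. Of 28 immediate early genes, 16 had an unadjusted p under 0.05 among 5, 8, 9 and 10 against 5.87% of all genes, and 9 of 28 between 3 and 4 against 4.85%. Other lists also had more than that share among 5, 8, 9 and 10, with 16 of 42 effector and memory genes, 10 of 38 type I interferon genes and 8 of 24 MHC and strain-polymorphic genes. The immediate early medians at 8, 9 and 10 relative to 5 were -0.05, -0.35 and -0.35. Between 3 and 4, 7 of 12 dendritic cell genes had an unadjusted p under 0.05, with a list median of -0.36 at number 4.

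**Figure D4:**
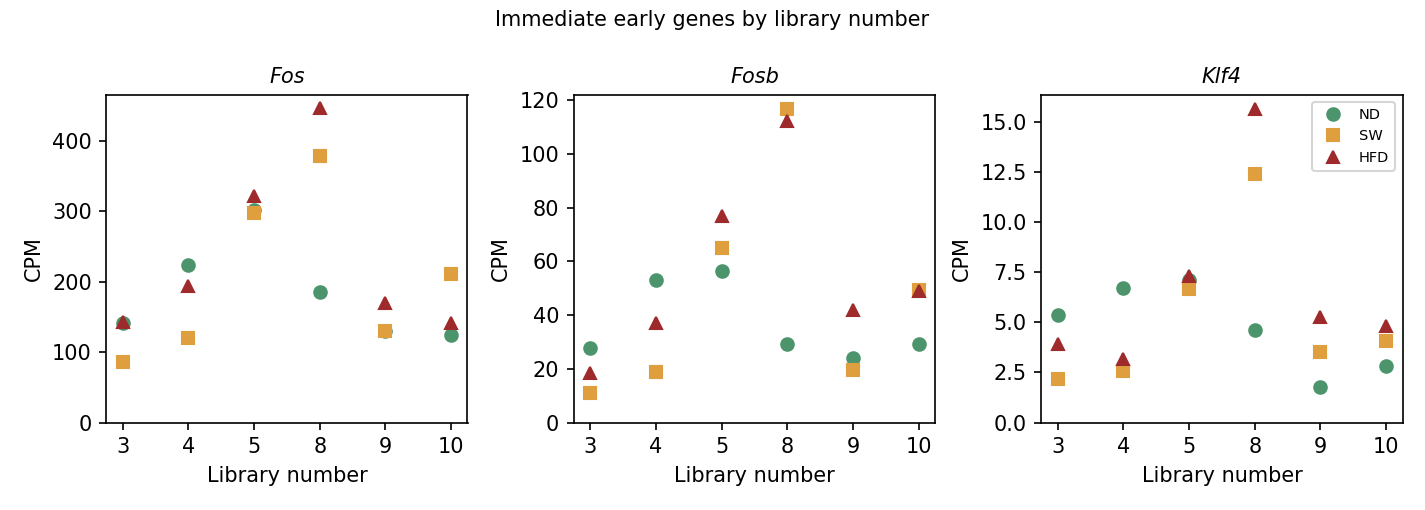
CPM (y axis) of Fos, Fosb and Klf4 in each library by its number (x axis), with the diet as marker. For Klf4, numbers 9 and 10 lie below 5 and 8 in every diet, and number 4 lies above 3 in every diet for Fos and Fosb.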

How the data were processed

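RNA-seq was done on 18 libraries of sorted mouse splenic CD8 T cells. The authors deposited raw counts per gene and FPKM values for each library. The submitters' processing notes name fastp and, as builds, GRCm38 and mm10. The sources used here name no aligner, counter or strand setting. Deposited FPKM values equalled the counts times a gene and a library factor, within a relative departure of 2.75e-09 over 9534 genes. The library factor departed by at most 1.51% from an expression-based size factor, so its planned test between the sets was not made. Gene length was taken from that gene factor, scaled to GENCODE M21, whose exon length it matched within 1% for 97.0% of 9487 genes. Of 56748 gene IDs, 52073 matched M21.

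Counts were fitted with edgeR 4.0.16 (R 4.3.3; TMM, filterByExpr, robust quasi-likelihood), with set and diet as factors, with their interaction, or with number and diet within a set. Calls are Benjamini-Hochberg adjusted p under 0.05. The steps were tested on simulated counts, in which the tests of number made more false calls than the nominal share. The labels do not say that libraries came from separate mice, so p-values measure the spread between these samples, which may be technical.

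The members, the gene lists and the tests were chosen with earlier results of these data known. Named genes were those of at least 5 CPM with a symbol: the 12 largest differences each way among apart genes, up to 4 per list by difference over SE, up to 8 per test by p, and a fixed set at any level. Trbc1, Trbc2, S100a8, S100a9, Cd14, Pf4, Kdm5d, Eif2s3y, Entpd4b, Cd300c2, Gm47558 and AC122119.2 fall outside this rule and were named after their values were seen. Alternatives were DESeq2 1.42.0, limma 3.58.1, other size factors and filters, and left-out libraries. A few results are not reported here.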

Additional observations from a re-analysis of the deposited data

Results flagged for a closer look

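Within the 6 libraries numbered 3 and 4, and within the 4 others of each diet, 27 measures were checked for a library far from the rest by Dixon's criterion, 108 groups of values in all, and 11 stood out. Chance alone gives about 1 in 20 groups.

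Of the libraries numbered 3 and 4, HFD 1 was far above the others for Hspa1b, at 254 CPM against 0.99 to 16.8 CPM, and for the haemoglobin gene Hbb-bs, at 71.4 CPM against 15.5 to 22.4 CPM. Among the other HFD libraries, HFD 4 was highest for Hspa1b at 7.17 CPM, and HFD 5 had the highest length index, 0.0454 against -0.0881 to -0.0691. In ND, the library ND 6 had the largest total count, 16398300, ND 3 the highest Fosb, 56.4 CPM, and ND 5 both the highest Rnf125, 36.1 CPM, and the lowest Mki67, 22.2 CPM. In SW, the library SW 5 had the highest Neat1, 604 CPM, and the lowest Cd74, 252 CPM against 429 to 452 CPM, and SW 3 had the highest Hbb-bs, 34.5 CPM.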

How the results depend on the processing

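The difference in median between long and short genes kept its sign under all 37 alternatives and was 0.0207 with the length offset, which takes that trend out by construction. Genes apart and higher numbered 71 with the length offset (44 lower) and 220 without HFD 1 and HFD 4 (131 lower). Leaving out 1 library or 1 number gave 139 to 381 higher and 66 to 284 lower, the most without replicate 5 (higher) or 2 (lower). Fewer libraries then have to be parted, but the counts also varied with the library left out, and 66 is under the 70 of the main fit. Without HFD 5 alone the counts were 276 and 116, without ND 2 200 higher, and without SW 5, HFD 1 and HFD 2 123, 109 and 113 lower. The interaction called 12 genes with no filter on low counts, 1 with DESeq2, 1 without HFD 1 and HFD 4, and 0 to 5 with a library or number left out. With the replicate block it called 1 (582 genes with an unadjusted p under 0.05). Same-numbered libraries of different diets correlated by -0.03 to 0.22 in their deviations from the diet mean, above 0.1 in 7 of 18 pairs. By this measure, which still holds the difference between the sets, 5 of 18 libraries correlated best with their own number. With the set mean also removed, the correlations were -0.21 to 0.04, 0 of 18 pairs were above 0.1, and 0 libraries correlated best with their own number. Removing these means pulls correlations down by construction, so they were set beside 42 pairs of other numbers in the same set. Those ran from -0.25 to 0.10 with a median of -0.045, against -0.051 for the same number. The numbers were therefore not taken as pairing. Number among 5, 8, 9 and 10 called 118 with no filter, 18 with DESeq2, 13 with limma-voom, 0 in 1 fit of all libraries and 0 to 14 with a library left out, with 0 without SW 3 or SW 5. Number 3 against 4 called 70, 6, 5, 0 and 6 to 38 in the same order. The cause of these changes was not tested. The share of genes with 1 sign in all diets was 57.98% at 5 CPM or more. The difference in total count turned to -105550 without replicate 3 (exact permutation p = 0.901) and was at most 672450. The difference of Mki67 was 0.12, and -0.09 without HFD 1. The 2 libraries of each diet numbered 3 and 4 limit the within-diet values. The length offset and the omission of HFD 1 with HFD 4 were chosen after seeing the data.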
